A study of Mus musculus with 18 samples.

Results

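Expression and alternative splicing of 10 genes of the YAP/TEAD pathway were compared between day 0 and day 12 of induced reprogramming of mouse embryonic fibroblasts (MEFs), and between treatments at day 12. The genes were listed by name: the co-activators *Yap1* and *Wwtr1* (which encodes TAZ), the DNA-binding partners *Tead1*, *Tead2*, and *Tead3*, the kinases *Lats1* and *Lats2*, and the target genes *Ccn1*, *Ccn2*, and *Amotl2*. All 10 were found in both expression tables, among 9435 genes for the knockdown dataset and 9472 for the overexpression dataset. In the table of 661941 splicing events, 299 belonged to these genes, and 268 of these were covered by reads in all 18 libraries.

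The MEFs carried a doxycycline-inducible *Oct4*, *Klf4*, *Sox2*, and *Myc* cassette in the *Collagen* locus together with the M2rtTA activator (genotype Collagen-OKSM, M2rtta+), so that all groups shared this genotype. The knockdown dataset compared non-infected cells at day 0 (NI) with day 12 cells that had received lentiviral shRNAs: a scrambled control (shSCR), shCPSF3#1 or shCPSF3#2 against *Cpsf3*, or shUL1#1 or shUL1#2 against *Hnrnpul1*. The overexpression dataset compared NI cells at day 0 with day 12 cells that had received a retrovirus without insert (Empty) or with T7-tagged *Tia1* (T7-TIA1). Each of the 9 groups had 2 libraries, and since the labels do not say that these came from separate cultures, the p-values measure the spread between the libraries only. Infected cells were sorted for GFP at day 2 and grown on irradiated feeder cells until the harvest at day 12, whereas NI cells were not. Infection, sorting, and the feeder layer therefore cannot be told apart from the day of reprogramming. Per the paper the feeders were inactivated MEFs, and the harvest dissociated the feeder layer. Day 12 libraries may thus hold RNA of feeder fibroblasts, and its share was not tested. A label field gives day 0 for shUL1#2 and day 12 for the NI cells of the overexpression set, and the days in the library titles were used.

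YAP and TAZ are transcriptional co-activators that shuttle between cytoplasm and nucleus. When the Hippo kinase cascade is active, LATS1 and LATS2 phosphorylate them and they are held in the cytoplasm or degraded. Otherwise they enter the nucleus and bind TEAD factors, which recognise the DNA motif CATTCC, to switch on genes such as *Ccn1* and *Ccn2*, secreted matricellular proteins, and *Amotl2*, an angiomotin family member that in turn restrains YAP. The pathway responds to cell density, stretch, and matrix stiffness and is active in cultured fibroblasts.

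The alternative exons of *Tead1* and *Yap1* carry the splicing results, and their sequences are shown first. *Tead1* has consecutive 63-nucleotide exons, exon 4 (chr7:112841888-112841950, plus strand, mm10) and exon 5 (chr7:112842040-112842102), which match at 44 of 63 positions. They are written in lower case with the 19 differing bases in capitals. Exon 6 of *Tead1* is a 12-nucleotide microexon (chr7:112856053-112856064), and exon 6 of *Yap1* has 48 nucleotides (chr9:7950492-7950539, minus strand). These exons are in capitals between the adjoining 12 bases of the neighbouring exons. All 4 are coding exons in GENCODE vM21 (*Tead1*-201 and *Yap1*-201), and the length of each is a multiple of 3.
Tead1 exon 4: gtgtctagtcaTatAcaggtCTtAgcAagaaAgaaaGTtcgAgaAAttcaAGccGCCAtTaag
Tead1 exon 5: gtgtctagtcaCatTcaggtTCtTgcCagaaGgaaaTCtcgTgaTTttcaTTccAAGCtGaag
Tead1 exon 6: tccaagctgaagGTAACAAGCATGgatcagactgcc
Yap1 exon 6: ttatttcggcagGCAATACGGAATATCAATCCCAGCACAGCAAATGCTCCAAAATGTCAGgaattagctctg

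The TEAD motif CATTCC or its reverse complement GGAATG was searched in promoter windows of RefSeq (GRCm38.p6, 250 bases before to 50 after the start of transcription). No other motif was searched. Windows were found for 8 of the 10 genes, and 6 of these had the motif in at least 1 window (*Yap1*, *Wwtr1*, *Tead3*, *Lats2*, *Ccn1*, and *Amotl2*), against 14.7% of all 32851 windows and 16.6% of all 27025 genes in the table. *Tead2* and *Lats1* had none, which says only that these letters are not in those windows. The matches in *Ccn1* and *Amotl2* are shown because the expression of these genes moved together in the libraries. They begin 103 bases before the *Ccn1* start (shown as chr3:145650071-145650100, minus strand) and 65 bases before the *Amotl2* start (chr9:102717727-102717756, plus strand), with the motif in capitals. The *Amotl2* match lies inside an exon of transcripts *Amotl2*-201 and *Amotl2*-207 of GENCODE, outside the coding sequence.
Ccn1: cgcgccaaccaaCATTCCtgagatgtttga
Amotl2: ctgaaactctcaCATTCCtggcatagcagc

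Expression is given as scaled CPM, the authors' CPM values (counts per gene as a share of a library's reads, after a scaling between libraries). If the smallest step between the values of a library is taken as 1 read, which the deposited files do not state, the libraries had 98882289 to 109047542 reads on listed genes. Each targeted gene lay on the side of its control that its label names in every library. *Cpsf3* had 86.7 and 118 scaled CPM in shSCR against 38.6 and 49.99 in shCPSF3#1 and 42.4 and 77.1 in shCPSF3#2, *Hnrnpul1* had 156 and 185 in shSCR against 55.7 and 85.8 in shUL1#1 and 38.7 and 63.7 in shUL1#2, and *Tia1* had 85.6 and 77.04 in Empty against 613 and 469 in T7-TIA1. *Cpsf3* fell by 1.00 ± 0.24 on the log2 scale (SE, adjusted p = 0.0207, and up to 0.169 without the second shSCR or the first shCPSF3#1 library) and *Hnrnpul1* by 1.52 ± 0.23 (adjusted p = 0.0101, and up to 0.076 without either shSCR library), by *limma* with all groups of the dataset in the fit. Of 10 fibroblast markers, 9 were listed (not *S100a4*), and their summed level was 14606 to 17840.4 scaled CPM in NI, 6509.7 to 7677 in shSCR, 23733 to 25026 and 15553 to 26728 with the *Cpsf3* shRNAs, and 16503 to 31347 and 13290.4 to 19030.3 with the *Hnrnpul1* shRNAs. Overexpression libraries had 16243 to 36022 in NI, 6399.5 to 7143 in Empty, and 5247 to 5617 in T7-TIA1. The markers in these sums did not move alike. *Col3a1* had 758 and 1309 in NI of the knockdown dataset and 3467 to 13130 with the shRNAs against either factor. *Vim* had 4593 and 4625 in NI and 1478 to 3148 with these shRNAs. From NI to either knockdown, 3 of the 9 passed as higher, 1 as lower, and 5 did not pass, beside 45.6% and 42.9% of all genes. Of 10 pluripotency markers, such as *Pou5f1* and *Nanog*, none was among the listed genes of either table, nor were the epithelial genes *Epcam* and *Cdh1*. Of 10 epithelial markers *Krt8*, *Krt18*, and *Krt19* were listed in the knockdown table (summed 49.9 to 62.4 in NI, 365 to 627 in shSCR, 46.2 to 56.9 and 55.3 to 247 with the *Cpsf3* shRNAs, 87.8 to 276 and 85.7 to 142 with the *Hnrnpul1* shRNAs), and *Krt19* alone in the overexpression table (15.3 to 27.95 in NI, 31.4 to 43.2 in Empty, 39.9 to 81.8 in T7-TIA1). Macrophage markers were listed in the knockdown table only, 3 of 5, and were summed at 9.57 to 10.6 in NI, 171 to 300.4 in shSCR, 1371 to 1814 and 429 to 1282 with the *Cpsf3* shRNAs, and 259 to 533 and 581 to 1000.2 with the *Hnrnpul1* shRNAs. Of 5 endothelial markers *Tek* was listed, in the knockdown table only, at 1.15 to 1.51 in NI, 24.96 to 29.7 in shSCR, 18.3 to 41.5 and 28.5 to 63.9 with the *Cpsf3* shRNAs, and 41.9 to 65.7 and 83.8 to 143 with the *Hnrnpul1* shRNAs. The part of these cell types in the results was not tested, and fewer cells of a type and less RNA per cell cannot be told apart in bulk samples.

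*Ccn2* fell further than any other of the 10 genes on the way to day 12, in both datasets. This gene (ENSMUSG00000019997, chr10:24595442-24598683, mm10) encodes a connective tissue growth factor. It had 2221 and 1555 scaled CPM in the NI libraries, 176 and 177 in shSCR, 105 and 274 in shCPSF3#1, 106 and 84.9 in shCPSF3#2, 106 and 109 in shUL1#1, and 156 and 153 in shUL1#2. Overexpression libraries had 1854 and 653 in NI, 195 and 171 in Empty, and 226 and 134 in T7-TIA1. Every day 12 library lay below every NI library of its dataset. From NI to shSCR *Ccn2* fell by 3.39 ± 0.38 on the log2 scale (SE, *limma* adjusted p = 0.000349), from 1888 ± 471 to 176 ± 0.628 scaled CPM (mean ± SD, n = 2, 10.7-fold lower). From NI to Empty it fell by 2.58 ± 0.51 (adjusted p = 0.0112), from 1254 ± 849 to 183 ± 17.2, where the 2 NI libraries differed widely. Its log2 difference to Empty was −1.83 without the first NI library of that dataset and −3.33 without the second.

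*Ccn1* and *Amotl2* were also lower at day 12 in every library, with a wider spread. *Ccn1* (ENSMUSG00000028195, chr3:145646976-145649981) had 2059 and 1915 scaled CPM in the NI libraries, 1359 and 922 in shSCR, 1074 and 733 in shCPSF3#1, 1373 and 542 in shCPSF3#2, 1607 and 755 in shUL1#1, and 1699 and 834 in shUL1#2. The first library of each day 12 knockdown group was higher than the second. In the overexpression libraries *Ccn1* had 1634 and 1030.4 in NI, 606 and 654 in Empty, and 554 and 574 in T7-TIA1, so that the Empty and T7-TIA1 libraries lay together below both NI libraries. *Amotl2* (ENSMUSG00000032531, chr9:102716672-102733418) had 716 and 656 scaled CPM in the NI libraries, 440.2 and 281 in shSCR, 424 and 268 in shCPSF3#1, 498 and 201 in shCPSF3#2, 550.5 and 245 in shUL1#1, and 539.9 and 294 in shUL1#2. It had 833 and 424 in NI, 248 and 264 in Empty, and 239 and 266 in T7-TIA1. From NI to Empty *Ccn1* fell by 1.04 ± 0.23 (adjusted p = 0.0151) and *Amotl2* by 1.21 ± 0.31 (adjusted p = 0.0245). From NI to shSCR the differences of −0.83 ± 0.55 (adjusted p = 0.255) and −0.96 ± 0.55 (adjusted p = 0.188) did not pass the test.

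Of the TEAD factors, through which YAP and TAZ reach DNA, *Tead1* fell in both datasets, *Tead3* in 1, and *Tead2* in neither control. *Tead1* (ENSMUSG00000055320, chr7:112679318-112906807) had 611 and 521 scaled CPM in the NI libraries, 302 and 274 in shSCR, 354 and 288 in shCPSF3#1, 342 and 259 in shCPSF3#2, 264 and 236 in shUL1#1, and 358 and 304 in shUL1#2. It had 632 and 411 in NI, 247 and 249 in Empty, and 240.3 and 244 in T7-TIA1. All day 12 libraries were below the NI libraries of their dataset, and *Tead1* fell by 0.97 ± 0.18 to shSCR (adjusted p = 0.00366) and by 1.04 ± 0.21 to Empty (adjusted p = 0.0114). *Tead3* (ENSMUSG00000002249, chr17:28331671-28350817) had 60.6 and 56.8 scaled CPM in the NI libraries, 53.4 and 31.8 in shSCR, 46.7 and 52.1 in shCPSF3#1, 52.02 and 36.5 in shCPSF3#2, 64.1 and 41.5 in shUL1#1, and 50.8 and 39.9 in shUL1#2, and of the day 12 libraries only the first of shUL1#1 lay above an NI library. It had 65.2 and 62.8 in NI, 32.96 and 33.2 in Empty, and 30.6 and 32.8 in T7-TIA1. *Tead3* fell by 0.93 ± 0.10 to Empty (adjusted p = 0.00213), and the difference of −0.50 ± 0.30 to shSCR (adjusted p = 0.208) did not pass. *Tead2* (ENSMUSG00000030796, chr7:45215753-45233644) had 109.7 and 107 scaled CPM in the NI libraries, 71.9 and 84.2 in shSCR, 58.8 and 61.4 in shCPSF3#1, 67.6 and 86.8 in shCPSF3#2, 65.1 and 81.03 in shUL1#1, and 60.1 and 78.4 in shUL1#2. It had 105 and 103 in NI, 91.7 and 89.5 in Empty, and 75.4 and 81.7 in T7-TIA1. Its differences of −0.47 ± 0.18 to shSCR (adjusted p = 0.0677) and −0.20 ± 0.10 to Empty (adjusted p = 0.146) did not pass, although no day 12 library reached the NI libraries.

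Both kinases that hold YAP and TAZ back lay below NI in every control library at day 12. *Lats1* (ENSMUSG00000040021, chr10:7681214-7716460) had 112 and 107 scaled CPM in the NI libraries, 73.4 and 58.03 in shSCR, 112 and 96.2 in shCPSF3#1, 96.8 and 72.5 in shCPSF3#2, 89.3 and 75.4 in shUL1#1, and 90.1 and 77.5 in shUL1#2. It had 111 and 107 in NI, 63.1 and 69.6 in Empty, and 62.5 and 65.99 in T7-TIA1. *Lats1* fell by 0.73 ± 0.18 to shSCR (adjusted p = 0.0134) and by 0.71 ± 0.10 to Empty (adjusted p = 0.00441), and the shCPSF3#1 libraries straddled the NI level. *Lats2* (ENSMUSG00000021959, chr14:57689662-57758388) had 218 and 185 scaled CPM in the NI libraries, 181 and 60.8 in shSCR, 217 and 125 in shCPSF3#1, 159 and 73.3 in shCPSF3#2, 142 and 80.4 in shUL1#1, and 160.3 and 93.2 in shUL1#2. It had 182 and 121 in NI, 79.5 and 87.2 in Empty, and 105 and 88.8 in T7-TIA1. *Lats2* fell by 0.83 ± 0.21 to Empty (adjusted p = 0.0242), whereas the difference of −0.93 ± 0.59 to shSCR (adjusted p = 0.239) did not pass, and its first shSCR library was 2.97 times the second.

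Neither co-activator passed the test in the controls. *Yap1* (ENSMUSG00000053110, chr9:7931999-8004596) had 238 and 232 scaled CPM in the NI libraries, 220.4 and 196 in shSCR, 229.9 and 210.1 in shCPSF3#1, 224 and 205 in shCPSF3#2, 237 and 210.3 in shUL1#1, and 186 and 183 in shUL1#2. It had 259.6 and 222 in NI, 205 and 212 in Empty, and 203 and 205 in T7-TIA1. *Wwtr1* (ENSMUSG00000027803, chr3:57455649-57575910) had 154 and 159 scaled CPM in the NI libraries, 175 and 137 in shSCR, 216 and 184 in shCPSF3#1, 208 and 167 in shCPSF3#2, 219 and 185 in shUL1#1, and 186 and 162 in shUL1#2. It had 158 and 153 in NI, 152 and 152 in Empty, and 151 and 145 in T7-TIA1. The *Yap1* differences of −0.18 ± 0.12 to shSCR (adjusted p = 0.248) and −0.21 ± 0.11 to Empty (adjusted p = 0.186) did not pass, and neither did those of *Wwtr1*, −0.014 ± 0.18 (adjusted p = 0.956) and −0.030 ± 0.09 (adjusted p = 0.804), which turned positive when all libraries were scaled to equal totals.

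**Figure D1:**
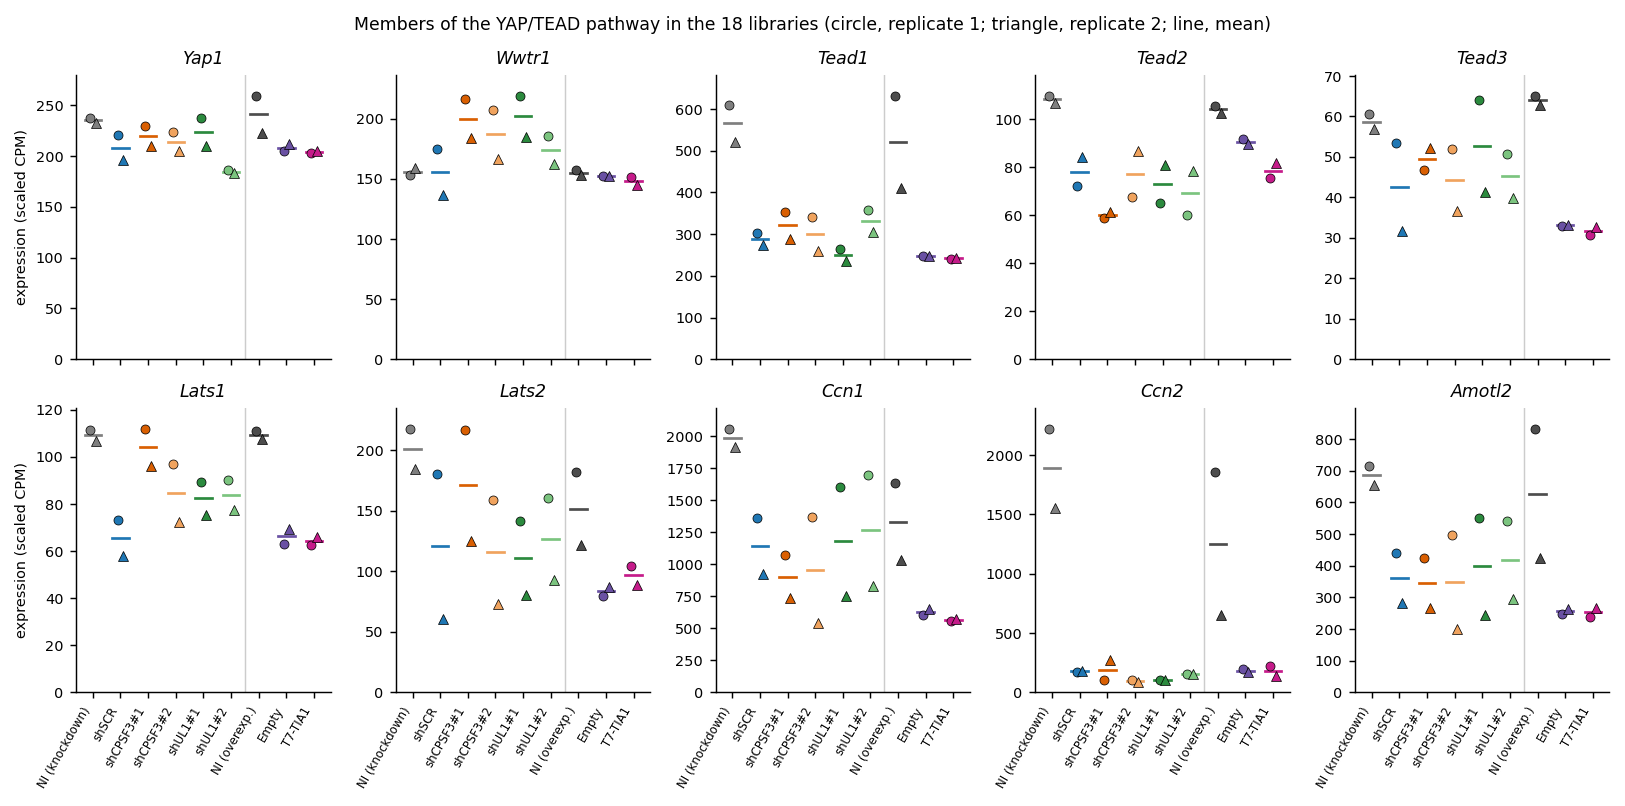
Scaled CPM (y axes, from 0, per gene) of the 10 genes in the 9 groups (x axes). Circles and triangles are the libraries numbered 1 and 2, lines are group means, and the grey line parts the knockdown from the overexpression dataset. *Ccn2* drops in every day 12 library, *Yap1* and *Wwtr1* stay between 183 and 259.6 and between 137 and 219 in all libraries, and *Ccn1*, *Amotl2*, and *Lats2* are higher in library 1 than in library 2 of all 5 day 12 knockdown groups.

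Counted together, 3 of the 10 genes fell from NI to shSCR (*Tead1*, *Lats1*, and *Ccn2*) and none rose, against 44.5% of all genes called and 22.0% called lower. The libraries did not overlap for 9 of the 10, all lower in shSCR, against 38.4% of all genes. From NI to Empty 7 of 10 fell and none rose, against 46.5% called and 23.6% called lower, and all 10 were lower in every Empty library, against 36.8% of all genes. The median log2 difference of the 10 was −0.78 to shSCR and −0.88 to Empty, beside a median over all genes of 0.00 and 0.013. Equal totals moved the median of all genes to 0.13 and 0.19 and the share of calls that were higher from 50.6% to 61.4% and from 49.2% to 66.9%. Without either NI library or without the second shSCR library *Lats1* no longer passed in the knockdown dataset (adjusted p up to 0.0795). Without either Empty library the count of 7 became 2, *Tead3* and *Lats1*, with adjusted p up to 0.0716 for *Ccn2* and 0.139 for *Lats2*.

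Against NI, the knockdown and T7-TIA1 cells at day 12 shared the NI libraries with these comparisons, and their values stand beside them only. From NI to *Cpsf3* knockdown, 3 of 10 fell, *Ccn2* (−3.86), *Tead1* (−0.87), and *Tead2* (−0.66), with 45.6% of all genes called and 19.9% called lower. The 3 that fell from NI to *Hnrnpul1* knockdown were the same by name, with *Ccn2* at −3.84, *Tead1* at −0.97, and *Tead2* at −0.61 (42.9% called, 19.4% lower). From NI to T7-TIA1, 7 of 10 fell, from *Tead2* at −0.40 to *Ccn2* at −2.65 (44.8% called, 22.4% lower), and 3 or 2 of 10 without the first or the second T7-TIA1 library. With equal totals the share of calls that were higher went from 54.8% to 66.9% for *Hnrnpul1* knockdown and from 49.9% to 67.1% for T7-TIA1, and with median centring it went from 56.4% to 46.1% for *Cpsf3* knockdown.

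**Figure D2:**
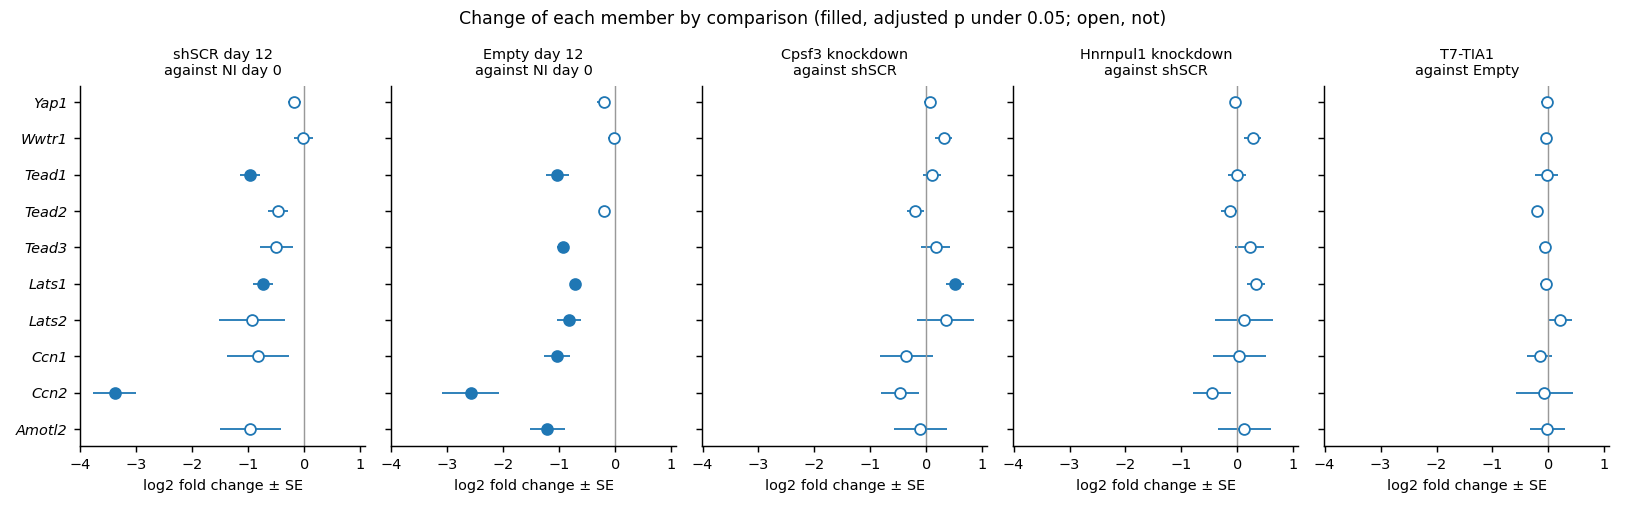
Log2 fold change of each gene (x axes, on log2(scaled CPM + 1), bars ± SE) in the 5 comparisons of the study. Filled points passed at an adjusted p under 0.05. Filled points lie left of 0 in the 2 comparisons with day 0, with *Ccn2* farthest at −3.39 and −2.58, and *Lats1* is the only filled point in the other 3.

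Whether depletion of the RNA-processing factors changed these genes was asked at day 12 against shSCR. *Cpsf3* encodes the endonuclease of pre-mRNA 3′ end processing, and *Hnrnpul1* an hnRNP-like RNA-binding protein. With *Cpsf3* knockdown 1 of the 10 genes passed, *Lats1*, which rose by 0.51 ± 0.16 (adjusted p = 0.0499), against 26.1% of all genes called and 16.7% called higher. This call was narrow, was lost with equal totals (adjusted p = 0.0563), and held only when the second shCPSF3#2 library was the one left out (otherwise adjusted p up to 0.327, without the second shSCR library). With the replicate number as a block, *Lats1* (adjusted p = 0.00321) and *Wwtr1*, 0.32 ± 0.15 (adjusted p = 0.0289, without the block 0.149), passed, beside 49.8% of all genes. With *Hnrnpul1* knockdown none of the 10 passed, against 10.5% of all genes, and none had an unadjusted p under 0.05. With the block *Lats1*, 0.34 ± 0.16, passed (adjusted p = 0.0263, without it 0.206), beside 29.3% of all genes. All 8 knockdown libraries but the second of shCPSF3#2 lay above both shSCR libraries in *Lats1*.

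None of the target genes passed in these comparisons. Against shSCR *Ccn2* stood at −0.47 ± 0.33 with *Cpsf3* knockdown (adjusted p = 0.307) and −0.45 ± 0.33 with *Hnrnpul1* knockdown (adjusted p = 0.401), and the second shCPSF3#1 library, at 274 scaled CPM, was the highest of the day 12 libraries. Without the second shCPSF3#1 library *Ccn2* passed in the first comparison (adjusted p = 0.0248). *Ccn1* stood at −0.35 ± 0.48 (adjusted p = 0.59) and 0.033 ± 0.48 (adjusted p = 0.971). Compared directly, *Cpsf3* and *Hnrnpul1* knockdown had none of the 10 genes past the test, with either *limma* fit, none with an unadjusted p under 0.05, against 0.0424% of all genes. With T7-TIA1 against Empty none of the 10 passed, none had an unadjusted p under 0.05, and 0% of all genes were called by *limma* (393 at an unadjusted p under 0.05, 2 at an adjusted p under 0.05 with only these groups fitted). There the differences ran from −0.20 for *Tead2* to 0.21 for *Lats2*, and *Tia1* itself, at 2.71 ± 0.21, did not pass either (adjusted p = 0.222). *Tia1* passed with only these groups fitted and without either NI library (adjusted p from 0.00596), and in the other alternatives, up to 1, it did not.

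The rest of the pathway was read from 2 lists, 27 upstream regulators and partners, all measured, and 17 other genes known as YAP targets, of which 15 were measured in the knockdown table and 14 in the overexpression table. From NI to shSCR 8 upstream genes fell, 2 rose, and 17 did not pass, and from NI to Empty 11 fell, 4 rose, and 12 did not pass. Of all genes, 44.5% passed to shSCR (22.0% lower) and 46.5% to Empty (23.6% lower). Among the other targets 5 fell and 3 rose to shSCR, and 8 fell and 3 rose to Empty. Among those that passed the test with libraries that did not overlap, the largest falls to shSCR were in *Crim1* (−2.07 ± 0.40), a transmembrane regulator of BMPs, *Vgll3* (−1.93 ± 0.46), a TEAD co-factor, and *Axl* (−1.87 ± 0.58), a receptor tyrosine kinase. *Ankrd1*, a target that codes for a muscle ankyrin repeat protein, stood lower still at −2.46 ± 1.36 and did not pass (adjusted p = 0.176). The largest rises were in *Nt5e* (3.43 ± 1.06), the ecto-enzyme CD73, *Igfbp3* (3.15 ± 0.41), an IGF-binding protein, and *Gadd45a* (2.28 ± 0.35), a stress-response gene. To Empty the largest falls were in *Ankrd1* (−2.60 ± 0.78), *Axl* (−1.81 ± 0.34), and the atypical cadherin *Fat4* (−1.76 ± 0.49), and the largest rises in *Igfbp3* (3.80 ± 0.86), the scaffold *Wwc1* (2.05 ± 0.23) (KIBRA), which activates LATS kinases, and *Nt5e* (1.74 ± 0.27). *Igfbp3* had 38.7 and 50.7 scaled CPM in NI against 269 and 600.2 in shSCR, so listed targets moved in both directions by day 12. The medians of the upstream genes were −0.31 and −0.30, and of the other targets −0.42 and −1.11, beside the medians over all genes given above. Leaving out 1 library left *Axl* (adjusted p = 0.174, without the second shSCR library), *Nt5e* (0.17, without the first), and *Vgll3* (0.0623, without the first NI library) short of the threshold in shSCR. In Empty the same held for *Ankrd1* (0.183) and *Igfbp3* (0.095) without the second Empty library and *Axl* (0.0754) and *Fat4* (0.173) without the first. Of the fibroblast markers 3 of 9 fell to shSCR and 5 of 9 to Empty, among them *Col1a1* (−2.30 and −3.18), and none rose. Not all fibroblast markers were lower. *Dcn* was higher in every library, by 3.39 to shSCR and 1.46 to Empty, and *Fbln1* by 1.49 to shSCR, but neither passed (adjusted p = 0.0918, 0.102, and 0.133). With the replicate block in *limma* both passed to shSCR (adjusted p = 0.00236 and 0.0101), beside 59.4% of all genes, but NI libraries have no pairing. *Krt8* (4.89), *Krt18* (3.93), *Tek* (3.60), and the 3 macrophage markers (*Lyz2* by 5.92) rose to shSCR. The part of these markers in the changes was not tested.

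Against shSCR, 5 of 27 upstream genes rose and 2 fell with *Cpsf3* knockdown, and 4 of 15 other targets rose and 1 fell. With *Hnrnpul1* knockdown 4 upstream genes rose and 1 fell, and 1 other target rose and 0 fell. Of all genes 26.1% and 10.5% passed. With the replicate block 17 and 13 upstream genes and 10 and 8 other targets passed, beside 49.8% and 29.3% of all genes. The genes named by the rule for *Cpsf3* knockdown were *Fat4* (2.19 ± 0.39), the matrix gene *Ccdc80* (1.55 ± 0.33), and *Igfbp3* (1.46 ± 0.36) among the rises and *Wwc1* (−1.53 ± 0.18), *Tead4* (−1.24 ± 0.34), a further TEAD factor, and the kinase *Nuak2* (−0.83 ± 0.18) among the falls. For *Hnrnpul1* knockdown they were *Igfbp3* (1.82 ± 0.36), *Fat4* (1.5 ± 0.39), and the FAT4 ligand *Dchs1* (1.03 ± 0.14) among the rises and *Wwc1* (−0.93 ± 0.18), the only fall. *Fat4* had 48.3 and 62.9 scaled CPM in NI, 39.98 and 15.8 in shSCR, 109.8 and 205 in shCPSF3#1, 97.6 and 90.9 in shCPSF3#2, 71.5 and 72.5 in shUL1#1, and 57.1 and 97.3 in shUL1#2. *Wwc1* had 45.3 and 33.2 in NI, 66.7 and 79.9 in shSCR, 14.1 and 18.1 in shCPSF3#1, 33.5 and 42.1 in shCPSF3#2, 46.9 and 44.1 in shUL1#1, and 27.98 and 35.5 in shUL1#2, so all 8 knockdown libraries lay below both shSCR libraries. Without the second shSCR library *Tead4* (0.196), *Nuak2* (0.0898), *Ccdc80* (0.0782), and *Fat4* (0.0576) did not pass with *Cpsf3* knockdown (adjusted p in parentheses), nor *Wwc1* (0.137), *Dchs1* (0.0549), and *Fat4* (0.292) with *Hnrnpul1* knockdown, and without the first *Igfbp3* did not pass with either (0.108 and 0.0996). Fibroblast markers moved with these changes (3 and 3 of 9 rose, *Col3a1* by 2.54 and 2.48), as did the 3 macrophage markers with *Cpsf3* knockdown (*Lyz2* by 2.42). With the block 6 and 4 of 9 fibroblast markers and 3 and 1 of 3 macrophage markers passed with *Cpsf3* and *Hnrnpul1* knockdown, beside 49.8% and 29.3% of all genes. The epithelial *Krt8* (−2.61), *Krt18* (−2.92), and *Krt19* (−1.93) fell with *Cpsf3* knockdown. With *Hnrnpul1* knockdown they were lower in every library (*Krt18* at −2.23) and *Tek* was higher in every library (1.44), which passed with the replicate block (adjusted p = 0.0244, 0.0123, 0.0354, and 0.0153, without it 0.12, 0.0594, 0.187, and 0.0643). Without the block *Krt8*, *Krt18*, and *Tek* passed when 1 library was left out (lowest adjusted p = 0.0495, 0.0317, and 0.049) and *Krt19* did not. The part of these markers was not tested. No gene of either list passed between T7-TIA1 and Empty or between the 2 knockdowns.

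**Figure D3:**
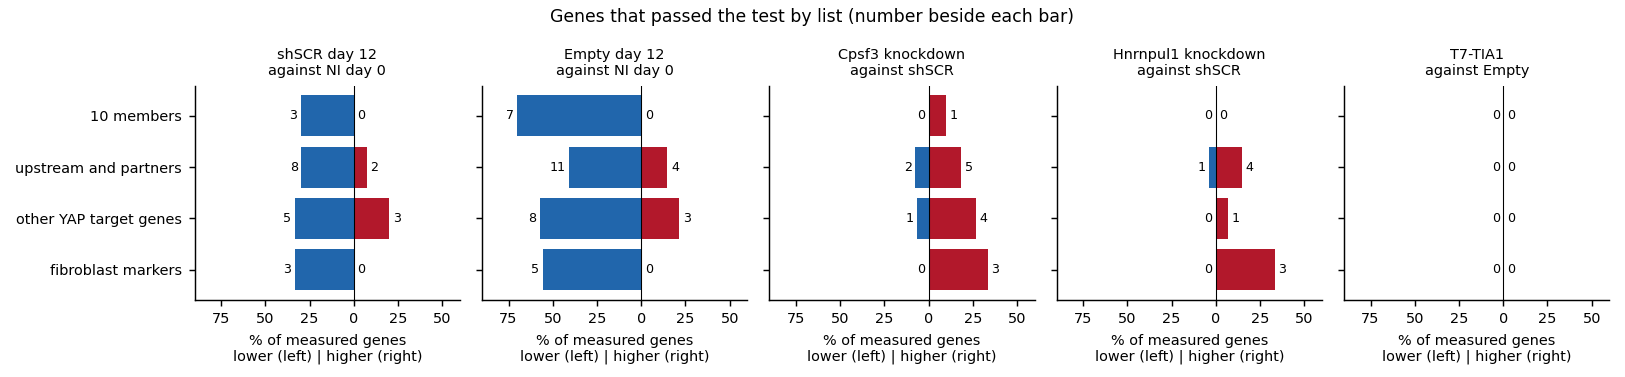
Percentage of the measured genes of each list (bars, blue lower, red higher) that passed at an adjusted p under 0.05 in each comparison, with the number of genes beside each bar. In the 2 comparisons with day 0 more genes of each list fell than rose, against shSCR more rose than fell in each list with a gene that passed, and no gene passed with T7-TIA1.

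The same 2 library numbers separated the day 12 knockdown cells in several of these genes. *Lats2*, *Ccn1*, and *Amotl2* were higher in library 1 than in library 2 of all 5 groups, by 1.72 to 2.97 times, 1.46 to 2.53 times, and 1.57 to 2.47 times. *Yap1*, *Wwtr1*, *Tead1*, and *Lats1* had the same order with ratios of at most 1.34, and *Tead2* had the opposite order in all 5. *Tead3* was higher in library 1 in 4 of 5 groups, with ratios from 0.895 to 1.68. *Ccn2* had no such order (2 of 5 groups). Of all genes, 25.5% were higher and 30.6% lower in library 1 of all 5 groups, so that an order shared by the 5 groups was common. The labels do not say what the numbers stand for.

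Among all genes of the knockdown table, *Amotl2* was the one whose pattern over the 12 libraries was most like that of *Ccn1* (Pearson r = 0.985 on the log2 scale), followed by *Tmem123* (r = 0.954) and *Samhd1* (r = 0.941). The r between *Ccn1* and *Amotl2* was 0.977 over the 10 day 12 libraries and 0.988 over the 6 overexpression libraries. These libraries fall into clusters by day and library number, which the genes share, and the r is given as a description. *Ccn2* had an r with *Ccn1* of 0.581 over 12 libraries and 0.023 over the 10 of day 12, but of 0.973 over the 6 overexpression libraries. The genes most like *Ccn2* were *Arl5a* (r = 0.988), *Hbegf* (r = 0.982), and *Zfp948* (r = 0.974). The genes most like *Yap1* were *Zdhhc7* (r = 0.974), *Sec23ip* (r = 0.938), and *Map9* (r = 0.932). Over the 6 overexpression libraries, which were not used to choose these genes, the r with *Yap1* was lower, at 0.749, 0.606, and 0.451, and the r with *Ccn2* was 0.975, 0.652, and 0.947. Over the 10 day 12 libraries the r with *Ccn2* was 0.862, 0.797, and 0.662.

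**Figure D4:**
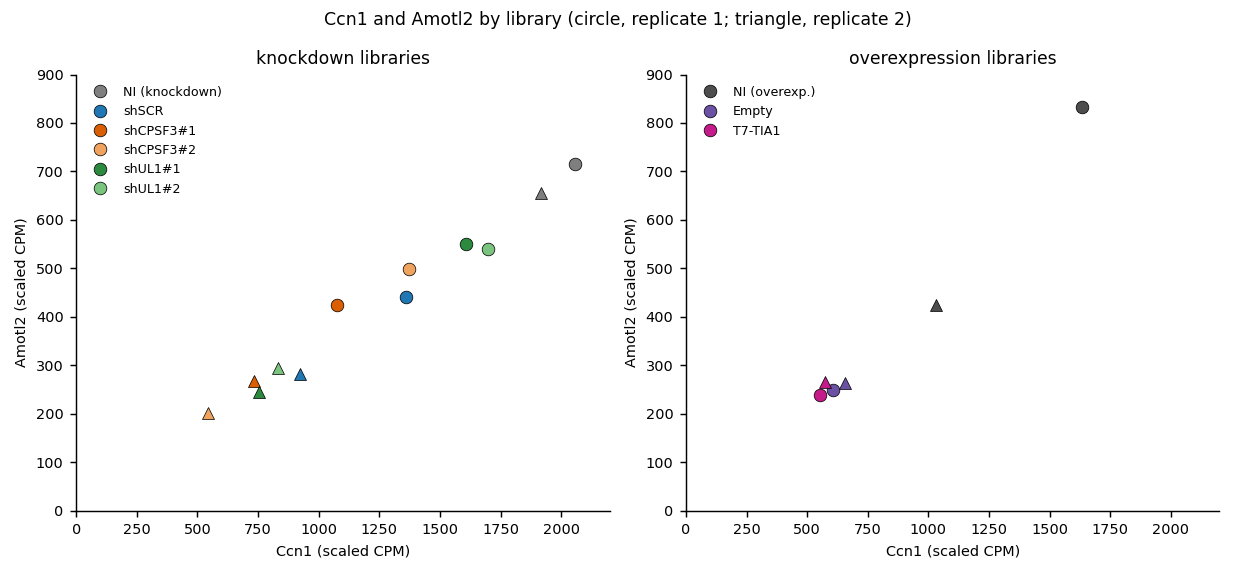
Scaled CPM of *Ccn1* (x axes) against *Amotl2* (y axes) in the 12 knockdown libraries (left) and the 6 overexpression libraries (right), coloured by group, with circles for library 1 and triangles for library 2. The points lie along a rising line, with NI libraries at the upper end and, in the knockdown dataset, the second libraries of the day 12 groups at the lower end.

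Splicing of these genes was compared in 268 covered events, 82 cassette exons, 80 introns, 57 alternative 5′ and 49 alternative 3′ splice sites. The percent spliced in (PSI) is the share of transcripts that include the event, from junction reads. An event was called differentially spliced when the group means differed by a ∆PSI of at least 10 and all libraries of both by at least 5, for a knockdown with each shRNA, and it was also tested at the level of reads with *limma*. Most events had a small ∆PSI. From NI to shSCR 256 of 268 had a ∆PSI under 5, and in the other 4 comparisons 258 to 265. By the PSI rule 2 of the 268 events were called from NI to shSCR, 1 from NI to Empty, 1 with *Cpsf3* knockdown, 1 with *Hnrnpul1* knockdown, and 0 with T7-TIA1. In the same comparisons the rule called 1.18%, 0.658%, 0.396%, 0.333%, and 0.272% of all covered events. Of the 268, the event called with *Hnrnpul1* knockdown was a *Tead2* intron, and the others called were exons of *Tead1*.

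The 12-nucleotide *Tead1* microexon was skipped more often at day 12 in both control cultures. Its PSI was 88.5% and 94.2% in NI, 81.3% and 57.2% in shSCR, 96.8% and 92.7% in shCPSF3#1, 91.1% and 76.2% in shCPSF3#2, 94.3% and 84.1% in shUL1#1, and 91.6% and 82.7% in shUL1#2. With overexpression it was 93.8% and 95.6% in NI, 66.5% and 79.3% in Empty, and 78.1% and 81.05% in T7-TIA1. Both shSCR libraries and both Empty libraries lay below all NI libraries of their dataset, and the ∆PSI was −22.1 to shSCR and −21.8 to Empty, each called with any library left out. Without the second shSCR library the ∆PSI to shSCR was −10.03, and without the first −34.2. The read-level test did not pass (log2 ratio of inclusion to exclusion reads −2.15 ± 0.80, adjusted p = 0.159, and −2.60 ± 0.40, adjusted p = 0.13). Restricted, after the data were seen, to events with a mean PSI from 1 to 99, it passed to Empty (adjusted p = 0.00615) and not to shSCR (adjusted p = 0.0785). All 8 knockdown libraries but the second of shCPSF3#2 lay above both shSCR libraries, with a mean ∆PSI of 19.9 for *Cpsf3* and 18.9 for *Hnrnpul1* knockdown, which the rule did not call because the libraries came within 5 of each other or overlapped. Without the second shSCR library these were 7.86 and 6.83, and without the first 32.04 and 31.01, both called. The *Cpsf3* difference was also called without the second shCPSF3#2 library (23.7). The exon rests on 119 to 269 reads a library.

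Exon 4 of *Tead1* was included less in shSCR than in NI and more with *Cpsf3* knockdown than in shSCR. Its PSI was 68.7% and 67.5% in NI, 60.9% and 41.3% in shSCR, 74.8% and 82.4% in shCPSF3#1, 77.1% and 67.4% in shCPSF3#2, 68.6% and 71.9% in shUL1#1, and 63.1% and 67.3% in shUL1#2. It was 67.7% and 75.5% in NI, 48.2% and 63.99% in Empty, and 62.4% and 59.2% in T7-TIA1 in the overexpression dataset. The rule called it lower in shSCR than in NI (∆PSI −16.98) and higher with *Cpsf3* knockdown than in shSCR (∆PSI 24.3), in the latter case with any library left out. Without the second shSCR library these were −7.18, not called, and 14.5. At the level of reads neither passed (−0.99 ± 0.38, adjusted p = 0.169, and 1.53 ± 0.34, adjusted p = 0.093), while among events with a mean PSI from 1 to 99 the *Cpsf3* difference did (adjusted p = 0.00791). From NI to Empty the ∆PSI was −15.5, with *Hnrnpul1* knockdown 16.6, and with T7-TIA1 4.71, none called with all libraries in. The difference to Empty was called in 2 of 6 cases with 1 library left out. Without the first shSCR library the *Hnrnpul1* difference was 26.4 and without the first shUL1#2 library 17.7, both called, as was the T7-TIA1 difference without the second Empty library (12.6).

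The near-copy exon 5 had mean differences of the opposite sign, whose size changed when single libraries were left out. Its PSI was 59.8% and 57.7% in NI, 62.4% and 81.97% in shSCR, 55.1% and 48.9% in shCPSF3#1, 52.4% and 67.3% in shCPSF3#2, 65.8% and 59.8% in shUL1#1, and 63.2% and 57.5% in shUL1#2. Overexpression libraries had 60.8% and 49.2% in NI, 76.5% and 64.5% in Empty, and 57.1% and 63.5% in T7-TIA1. The ∆PSI was 13.5 to shSCR, 15.5 to Empty, −16.3 with *Cpsf3* knockdown, −10.6 with *Hnrnpul1* knockdown, and −10.2 with T7-TIA1, and none was called. With 1 library left out, the *Hnrnpul1* difference was called in 1 of 12 cases and the T7-TIA1 difference in 2 of 6. Without the second shSCR library the ∆PSI to shSCR was 3.69 and with *Cpsf3* knockdown −6.53, and without the first they were 23.2 and −26.1, both called. The *Cpsf3* difference was also called without the second shCPSF3#2 library (−20.02). To Empty it was called without the first NI (21.3) or the second Empty library (21.5), and without the other library of each pair it was 9.72 and 9.54. The PSI of the 2 exons summed to between 119.5 and 135 in all 18 libraries. GENCODE lists 11 coding *Tead1* transcripts, 3 with both exons, 4 with exon 5 alone, 1 with exon 4 alone, and 3 with neither. The exons match at 69.8% of positions, and how reads were divided between them was not tested.

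*Yap1* exon 6, within the transactivation domain of the co-activator, had a higher PSI at day 12 in every library than in NI of the same dataset. Its PSI was 37.7% and 34.4% in NI, 47.4% and 41.8% in shSCR, 47.7% and 48.3% in shCPSF3#1, 42.97% and 43.3% in shCPSF3#2, 45.6% and 43.02% in shUL1#1, and 45.6% and 43.5% in shUL1#2. It was 34.8% and 36.9% in NI, 42.4% and 41.5% in Empty, and 37.7% and 40.1% in T7-TIA1 in the overexpression dataset. The exon rests on 845 to 1195 reads a library. The ∆PSI of 8.56 to shSCR and 6.10 to Empty was not called, but to shSCR it was called without the first NI library (∆PSI 10.2) or the second shSCR library (11.3). Without the first shSCR library it was 5.78. Neither passed at the level of reads (0.52 ± 0.12, adjusted p = 0.0578, and 0.37 ± 0.09, adjusted p = 0.182). With the replicate block in that test the difference to shSCR passed (adjusted p = 0.0344), beside 25049 of all 374159 events, but NI libraries have no pairing. Of the 6 coding *Yap1* transcripts in GENCODE 3 hold the exon. The knockdowns differed from shSCR by 0.965 and −0.188 in PSI.

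**Figure D5:**
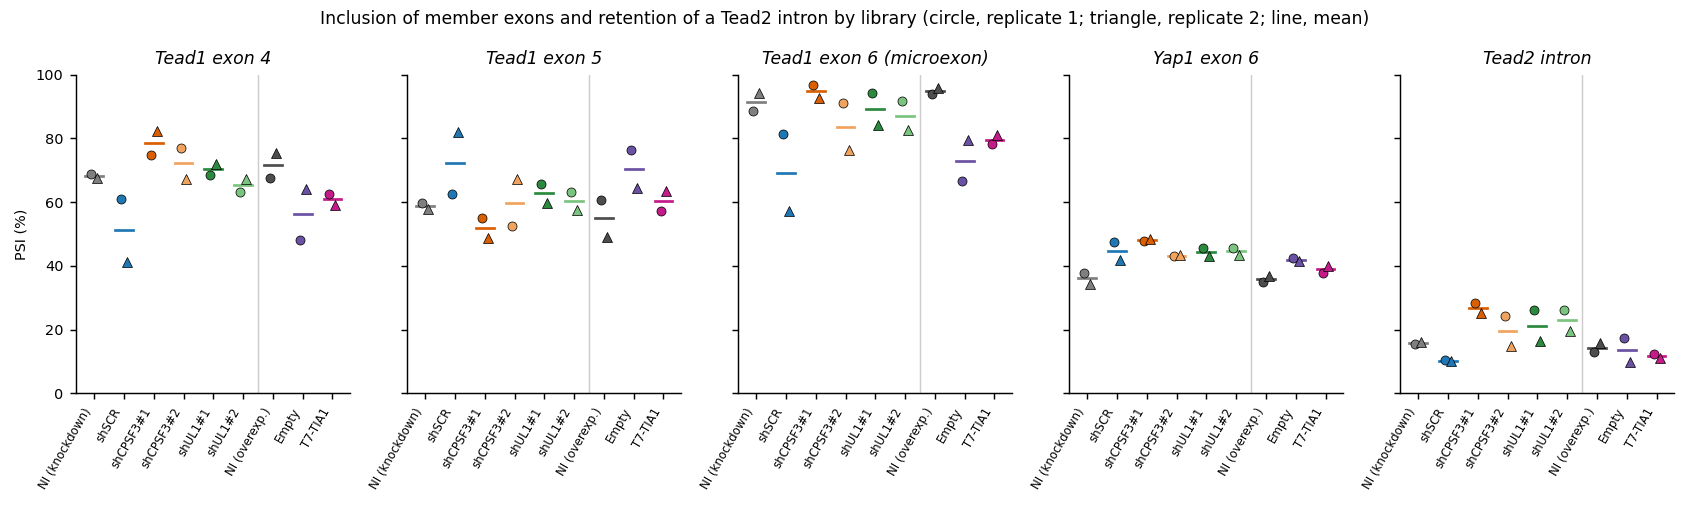
PSI in percent (y axis, 0 to 100) of *Tead1* exons 4, 5, and 6, *Yap1* exon 6, and the first *Tead2* intron in the 9 groups (x axes). Circles and triangles are libraries 1 and 2, and lines are group means. *Tead1* exons 4 and 6 are lowest in shSCR and Empty, exon 5 is highest there, and the *Tead2* intron is higher in the knockdown groups than in shSCR.

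The first intron of *Tead2* (chr7:45215833-45217212), upstream of the coding sequence, had a higher PSI in all 8 knockdown libraries than in shSCR, which the rule called for *Hnrnpul1* knockdown and which did not pass at the level of reads. Its PSI was 15.4% and 16.2% in NI, 10.5% and 10.04% in shSCR, 28.2% and 25.3% in shCPSF3#1, 24.1% and 14.7% in shCPSF3#2, 26.2% and 16.3% in shUL1#1, and 26.2% and 19.7% in shUL1#2. It was 13% and 15.8% in NI, 17.4% and 9.86% in Empty, and 12.3% and 11.1% in T7-TIA1 in the overexpression dataset. The ∆PSI was 12.8 with *Cpsf3* and 11.8 with *Hnrnpul1* knockdown, of which the rule called the second, but not without the first shUL1#1 library (∆PSI 9.37), and not the first, since the second shCPSF3#2 library, at 14.7%, came within 5 of shSCR. Without the second shCPSF3#2 library the first was called (15.2). The read-level test gave 1.33 ± 0.32 (adjusted p = 0.113) and 1.26 ± 0.32 (adjusted p = 0.177), and both passed among events with a mean PSI from 1 to 99 (adjusted p = 0.0206 and 0.0393). Exons of 6 of the 17 *Tead2* transcripts in GENCODE reach into this intron, and reads from these and from a retained intron cannot be told apart.

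At the level of reads 4 events passed from NI to shSCR, against 4.63% of all covered events, and 0 to 2 without any single NI, shSCR, or shCPSF3#1 library. In 2 of them, coding exons of *Ccn2* (chr10:24595876-24596098 and chr10:24596347-24596598), the PSI was 100% in all 18 libraries, on 1115 to 25266 reads a library for the longer exon, so that the PSI itself did not differ. Without exclusion reads, their log2 ratios (−3.47 and −3.48) follow the number of inclusion reads and say nothing about splicing. Events of this kind were not left out of the 4.63%. Another was a coding exon of *Amotl2* (chr9:102725103-102725195), at 100% in both NI libraries and 99.1% and 100% in shSCR. The fourth was a *Tead2* intron (chr7:45228813-45231308) at 0.480% and 0.810% in NI and 2.47% and 1.80% in shSCR (adjusted p = 0.0369). None of the 268 events passed from NI to Empty, with *Cpsf3* knockdown, with *Hnrnpul1* knockdown, or with T7-TIA1. Of all covered events 0.000525%, 0.578%, 0.133%, and 0% passed there. With the replicate block 2 introns of the 268 events passed with *Cpsf3* knockdown, beside 0.739% of all events, a *Tead1* intron that ends at exon 4 (chr7:112839481-112841887, PSI 4.47% and 8.80% in shSCR against 1.31% to 4.01%, adjusted p = 0.0362, without the block 0.177) and a *Ccn2* intron (chr10:24596599-24596731, 1.92% and 4.55% against 0.360% to 1.06%, adjusted p = 0.0373, without it 0.236). Cassette exons of *Amotl2* with intermediate PSI, at chr9:102716963-102717086 (16.7% to 37.6% over the 18 libraries) and chr9:102717753-102717902 (79.9% to 90.6%), were called in no comparison with all libraries in. The first was called to shSCR without the first NI or the first shSCR library (∆PSI 11.7 in each case) and with T7-TIA1 without the second T7-TIA1 library (−12.9). It rests on only 40 to 243 reads a library.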

How the data were processed

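RNA-seq of 18 MEF libraries was analysed, 12 in the knockdown and 6 in the overexpression dataset. Per the paper and the labels, the authors sequenced stranded libraries in duplicate, pooled over separate lanes, mapped the reads to mm10 with *STAR* 2.7.1a, and analysed gene expression with *edgeR* 3.16.5. The deposited expression values, in a table per dataset, are a signal, CPM relative to a scaled library size, and sums per library ranged from 937556 to 1104164. Both tables are filtered lists of genes, with the filter for these tables not given in the sources used here. The authors quantified events with *vast-tools* and deposited PSI in percent, with a coverage score and reads per event and library.

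Expression was tested with *limma* 3.58.1 (R 4.3.3, trend option, two-sided) on log2(scaled CPM + 1). Each dataset was fitted once with its groups together, and p-values were adjusted over all genes (Benjamini-Hochberg, adjusted p under 0.05). Fold changes on this scale understate changes of low genes. The 2 shRNAs of a factor were averaged. Events needed a score of VLOW (10 reads) or better in every library of the dataset. The read-level test used *limma* on log2 inclusion over exclusion reads, 1 read added, weighted by counting variance plus a floor of 0.1. Both tests were checked on simulated data. The simulated events all had some expected skipping, so that check did not cover exons that are always included. Depth was even. Counting error grows as reads become fewer, and its part in the calls of single events was not tested. The named *Tead1* exons rest on 119 to 647 reads a library and an *Amotl2* exon on 40 to 243. Intervals from reads would cover counting error only. Tables were made with Python 3.11.15, NumPy 2.4.6, and pandas 2.3.3.

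The members, lists, and tests were chosen with earlier results of these data known. Named beside the 10 genes were the targeted genes, the 3 largest rises and falls per comparison among pathway genes that passed with libraries that did not overlap, the 3 genes most like *Yap1*, *Ccn1*, and *Ccn2*, and events that passed or cassette exons with a mean PSI from 10 to 90 in any group. Replicate numbers in the labels were treated as pairs among the day 12 knockdown groups, where deviations of same-numbered libraries from group means correlated across genes (r from 0.674 to 0.949), and not for NI (r from −0.127 to 0.0218). Alternatives varied the added constant, filter, scaling, groups fitted, replicate block, coverage score, PSI criteria, and libraries left out. Sequences came from RefSeq and GENCODE vM21.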

Additional observations from a re-analysis of the deposited data

Results flagged for a closer look

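*Tead1* lay on opposite sides of shSCR with the 2 shRNAs against *Hnrnpul1*. Both shUL1#1 libraries (264 and 236 scaled CPM, mean 250.25) lay below both shSCR libraries (302 and 274), and both shUL1#2 libraries (358 and 304, mean 331) lay above them. The difference between the shRNAs was not tested, and the mean effect of the factor on *Tead1* averages over it. Groups of 2 libraries are too small for a test of outlying libraries.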

How the results depend on the processing

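With 2 libraries a group, calls often rest on 1 library, chiefly the second shSCR library, and counting error adds to this for events with few reads. *edgeR* and *DESeq2*, foreseen as alternatives, were not run, because the values are scaled CPM and not counts. Counts of members that passed, with each library left out in turn, were 2 to 3 of 10 from NI to shSCR, 0 to 1 for *Cpsf3* knockdown, 2 to 8 to Empty, 2 to 5 and 2 to 9 from NI to *Cpsf3* knockdown and T7-TIA1. The count from NI to *Cpsf3* knockdown was 5 without the first shCPSF3#2 library. The low counts to Empty and T7-TIA1 came without a library of these groups. *Lats1* with *Cpsf3* knockdown was lost without any library but the second of shCPSF3#2, with equal totals, with median centring, and with only the groups compared. With the replicate block the counts were 7 from NI to shSCR (*Tead2*, *Lats2*, *Ccn1*, and *Amotl2* as well, beside 59.4% of all genes), 2 and 1 for *Cpsf3* and *Hnrnpul1* knockdown, and 6 and 9 from NI to these knockdowns, of which those against NI have no pairing. In the overexpression dataset, where same-numbered libraries correlated by r of 0.171 to 0.308 over 2 pairs a comparison and the numbers were not taken as pairs, the block left 7 members to Empty, 8 to T7-TIA1, and 0 between them. The block moved no other count of members by over 1.5 times in expression. By the PSI rule, leaving out libraries gave 2 to 5 events to shSCR, 1 to 6 and 0 to 4 for *Cpsf3* and *Hnrnpul1* knockdown, 1 to 4 to Empty, and 0 to 3 with T7-TIA1. Without a minimum range it gave 4, 4, 3, and 1 for the last 4, and with a minimum ∆PSI of 15 the *Hnrnpul1* event was lost (0). At the level of reads it gave 0 to 4 to shSCR and 0 to 1 and 0 to 1 for the knockdowns. There 0.5 read added gave 2 to shSCR, the replicate block 16 to shSCR and 2 for *Cpsf3* knockdown (beside 25049 and 2766 of all 374159 events), and the restriction to a mean PSI from 1 to 99, chosen after seeing the data, 3, 1, and 4 for *Cpsf3* knockdown, *Hnrnpul1* knockdown, and Empty. The cause of these changes was not tested.

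Over all genes, 2458 and 987 were called for *Cpsf3* and *Hnrnpul1* knockdown, 344 and 145 with only these groups fitted, and 4698 and 2768 with the block, and between the knockdowns 4, 0, 70, and 7 with equal totals. The counts of both knockdowns, and the shares of all genes taken from them, also moved widely with single libraries left out. Over all events, the read-level test called 17323 to shSCR (6991 with 0.5 read, 8279 at a mean PSI from 1 to 99), 2164 for *Cpsf3* (1037 and 3742), 496 for *Hnrnpul1* (286 with the block and 1899), 2 to Empty (1147), and 0 with T7-TIA1 (54). In the knockdown dataset these counts, and the shares of all events taken from them, also moved widely with single libraries left out.

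Of 114 single differences, 23 changed sign under an alternative, and 0 of these passed the test there. With equal totals *Wwtr1* stood at 0.12 to shSCR and 0.15 to Empty, and *Yap1* at −0.034 with *Cpsf3* knockdown. With libraries left out, *Wwtr1* ranged from −0.19 to 0.16 to shSCR. With *Cpsf3* knockdown the ranges were −0.023 to 0.14 (*Yap1*), −0.00077 to 0.20 (*Tead1*), −0.20 to 0.53 (*Tead3*), −0.43 to 1.12 (*Lats2*), and −0.43 to 0.22 (*Amotl2*). With *Hnrnpul1* knockdown they were −0.12 to 0.051 (*Yap1*), −0.070 to 0.066 (*Tead1*), −0.15 to 0.58 (*Tead3*), −0.66 to 0.90 (*Lats2*), −0.25 to 0.31 (*Ccn1*), and −0.20 to 0.44 (*Amotl2*), and with T7-TIA1 −0.11 to 0.025 (*Lats1*), −0.44 to 0.30 (*Ccn2*), and −0.099 to 0.056 (*Amotl2*). For events at the level of reads they were −0.10 to 0.75 and −0.065 to 0.35 (the *Amotl2* exons, Empty), −0.11 to 0.22 and −0.17 to 0.15 (*Yap1* exon 6, *Cpsf3* and *Hnrnpul1*), −0.19 to 0.73 (*Tead1* exon 4, T7-TIA1), and −0.61 to 0.32 and −0.65 to 0.27 (the first *Tead2* intron, Empty and T7-TIA1).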
